A study of Mus musculus with 12 samples.

Results

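RNA of isolated heart muscle cells was compared between all 6 libraries from mice that received JV101 and all 6 libraries from mice that received saline, so the comparison used 12 of the 12 libraries of the study. JV101 and saline were each given after 2 kinds of surgery, 5/6 nephrectomy (NX, the removal of most kidney tissue, a model of chronic kidney disease) and a sham operation, and surgery entered the model as an additive term. The 4 groups of 3 libraries were NX JV101, sham JV101, NX saline and sham saline. All mice were C57BL6 with a wild-type genotype and were killed 16 weeks after surgery. The labels do not say what JV101 contains, and they give neither its dose nor the day of injection, nor the age or sex of the mice. The JV101 effect described here is the difference between JV101 and saline averaged over both surgeries, and the genes looked for were those that differed the same way after each surgery.

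The genes described below belong mainly to 3 biological groups. The heart is covered by a mesothelium, a sheet of flat epithelial cells that also lines the pericardium and that carries surface proteins such as mesothelin, the mucin that binds it, uroplakins and simple-epithelium keratins. Cardiomyocytes burn mainly fatty acids, and the nuclear receptors of the PPAR family switch on genes of fatty acid handling when lipid supply is high, as in fasting. One of them, Pdk4, encodes a kinase that shuts pyruvate out of the mitochondrial fuel supply. Heat shock proteins are chaperones that keep other proteins folded, and the factor HSF1 induces many of them together when unfolded protein accumulates.

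The libraries held 26.4 to 33.8 M counts assigned to genes, and 16548 to 18342 genes had at least 1 count. Mitochondrially encoded protein genes, 13 in number, took 46.3 ± 7.73% of the counts in the JV101 libraries and 52.0 ± 13.0% in the saline libraries (mean ± SD, n = 6 each), with a range of 36.7% to 69.0%. This share did not pass an exact permutation test within surgery (2-sided p = 0.39, 0.693 after Benjamini-Hochberg adjustment over 4 library measures, with 0.005 as the smallest p that 400 arrangements can give). Genes of ventricular cardiomyocytes were abundant in both arms. Myl2, the ventricular regulatory myosin light chain, had 4458, 4909 and 5459 CPM (counts scaled to a library of 1 M) as the lowest, median and highest JV101 library, against 4000, 4439 and 6220 CPM in the saline libraries. The 14 ventricular markers had a median log2 fold change of 0.04. RNA of other heart cells was present as well. The endothelial gene Pecam1 ranged over 47.4 to 269 CPM in JV101 libraries and 73.8 to 254 CPM in saline libraries, and Tcf21, a fibroblast transcription factor, over 1.02 to 8.20 CPM and 2.25 to 5.25 CPM. The labels do not say whether libraries of a group came from separate animals, and the p-values speak only of the spread from library to library.

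Of 22794 genes in the table, 14412 had enough counts to be tested. No gene differed between JV101 and saline over both surgeries at an adjusted p of 0.05 with edgeR's quasi-likelihood test and Benjamini-Hochberg adjustment. The smallest adjusted p with edgeR was 0.499, reached by Lrrn4 and Msln, both mesothelial genes. Without adjustment, edgeR gave 350 genes a p under 0.05, of which 191 (1.33% of those tested) were lower with JV101 and 159 (1.10%) were higher. Even together these shares are below the share of 0.05 expected where no gene differs. An unadjusted p under 0.05 is used below to order genes and does not mark a gene as changed. All 350 had the same sign after NX and after sham surgery. Choosing genes by a small p over both surgeries favours this, so the agreement is not a replication. Without sham JV101 replicate 3, 828 genes had an unadjusted p under 0.05. The split of 191 lower to 159 higher depended on the scaling. It was 228 lower to 121 higher with median-ratio (RLE) factors and 69 lower to 214 higher with limma on log2(FPKM + 1), a scale on which the median of all genes was 0.14, against 0.02 in the edgeR fit. The log2 fold change had a median standard error of 0.129 at 10 CPM or more, and 2 such errors corresponded to a 1.20-fold difference.

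DESeq2, run as an alternative on the same counts and model, called 7 genes, and all 7 were lower with JV101. Adjusted p-values (DESeq2, Benjamini-Hochberg) were 0.000269 for Lrrn4, 0.000336 for Msln, 0.0172 for Xpnpep2 and Lrp2, 0.0191 for Pdk4 and 0.0328 for Upk3b and Muc16. The 4 genes Lrrn4, Msln, Upk3b and Muc16 are mesothelial markers. Lrrn4 and Msln were called by DESeq2 whichever of the 12 libraries was left out, with highest adjusted p-values of 0.00891 and 0.0124, both without sham saline replicate 3. The other DESeq2 calls were lost without single libraries. Xpnpep2 was called in 5 of the 12 fits, Lrp2, Upk3b and Muc16 in 4 each and Pdk4 in 3, and without NX JV101 replicate 2 the DESeq2 adjusted p of Pdk4 was 0.728. The number of DESeq2 calls lay between 2 and 23 in these fits, and leaving out any single library moved it by over 1.5 times. It was highest without sham JV101 replicate 2 (23 genes) and without sham JV101 replicate 3 (20 genes).

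The comparison of JV101 with saline after NX and the one after sham surgery share no library. Of the 14412 genes, 4374 (30.3%) were higher and 3295 (22.9%) lower with JV101 after both surgeries, and 6743 had opposite signs. Across genes, which are not independent replicates, the log2 fold changes of the NX and sham comparisons had a Pearson r of −0.0051 and a Spearman coefficient of 0.0933. Among the 6834 genes at 10 CPM or more, r was 0.0045. After NX alone, edgeR called 0 genes after adjustment (345 or 2.39% at an unadjusted p under 0.05) and DESeq2 called 8, among them Lrrn4, Msln, Upk3b, Muc16, Krt19, Lrp2 and the lymphoid factor Spib. After sham alone edgeR and DESeq2 called 0 genes each (245 or 1.70% at an unadjusted p under 0.05 with edgeR, 309 genes with DESeq2). The interaction of surgery and JV101 had 0 calls with either tool (256 genes or 1.78% at an unadjusted p under 0.05 with edgeR, 307 genes with DESeq2). The edgeR shares after NX, after sham and for the interaction were also below the share of 0.05 expected where no gene differs. A stricter count asked that every JV101 library lie on one side of every saline library of the same surgery, in the same direction after both surgeries. This held for 27 genes that were lower (0.187%) and 16 that were higher (0.111%), while 15 (0.104%) were apart in opposite directions after NX and sham surgery. With a mean of at least 1 CPM, 16 of the lower and 14 of the higher genes remained. Neither the lower nor the higher share exceeds the one expected if JV101 and saline labels were exchangeable within each surgery. Being apart therefore describes the libraries of a gene and is no test of a difference.

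**Figure D1:**
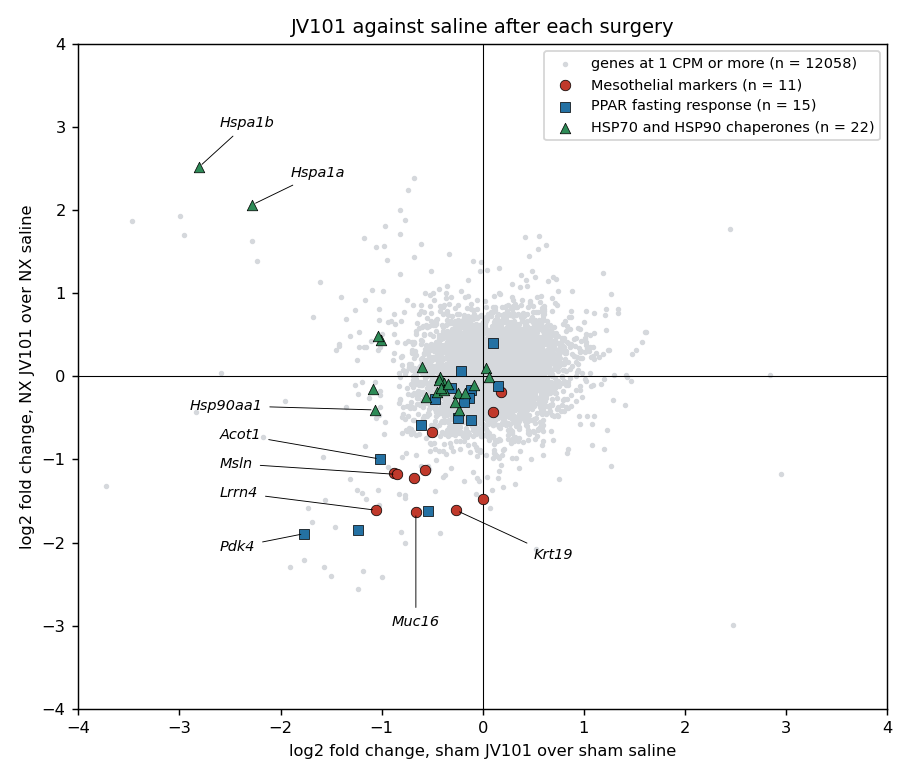
Each point is 1 of 12058 genes with a mean of at least 1 CPM, with the log2 fold change of sham JV101 over sham saline on the horizontal axis and of NX JV101 over NX saline on the vertical axis. Most mesothelial markers (red circles) and PPAR genes such as Pdk4 (blue squares) lie in the lower left, most chaperones (green triangles) lie there too but closer to 0 after NX, Hspa1a and Hspa1b lie in the upper left, and 8 genes fall outside the axes.

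Mesothelial markers were lower with JV101 after both surgeries. Of 12 markers, all measured, 12 had a negative log2 fold change over both surgeries (45.1% of all genes did). Of these, 10 were negative both after NX and after sham (22.9% of all genes). Of the 12 markers, 8 had an unadjusted edgeR p under 0.05 in the lower direction (1.33% of all genes). Their median log2 fold change was −0.89 over both surgeries, −1.17 after NX and −0.54 after sham, against 0.02 for all genes. None passed with edgeR after adjustment, and Lrrn4, Msln, Upk3b and Muc16 did with DESeq2. In bulk RNA, fewer cells of a type and less RNA per cell cannot be told apart.

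Lrrn4 encodes a leucine-rich repeat membrane protein used as a marker of mesothelial cells. It had 3.78, 3.09 and 4.81 CPM in the NX JV101 libraries, against 12.6, 6.41 and 16.8 CPM in NX saline. After sham surgery it had 3.64, 4.79 and 3.74 CPM with JV101, against 8.03, 7.16 and 9.998 CPM with saline. All 6 JV101 libraries were below all 6 saline libraries. Lrrn4 averaged 3.98 ± 0.687 CPM with JV101 and 10.2 ± 3.94 CPM with saline (SD, n = 6 each), 2.52-fold lower (log2 fold change −1.34 ± 0.23, SE; adjusted p = 0.499 with edgeR).

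Msln, mesothelin, is a surface glycoprotein of mesothelial cells. It had 7.19, 6.74 and 6.51 CPM in NX JV101 libraries, against 16.3, 10.2 and 19.8 CPM in NX saline, and 7.14, 9.94 and 8.12 CPM in sham JV101, against 14.6, 11.6 and 19.1 CPM in sham saline. Here too the highest JV101 library was below the lowest saline library. Msln was 2.02-fold lower over both surgeries (log2 fold change −1.02 ± 0.17, SE), with log2 fold changes of −1.18 after NX and −0.85 after sham. All 6 JV101 libraries lay below all 6 saline libraries for 9 of the 14412 genes (0.0624%), and 5 of these had a mean of at least 1 CPM, among them Lrrn4, Msln and Ptpn13. They lay above all 6 saline libraries for 9 genes as well (0.0624%).

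Upk3b, a uroplakin-family membrane protein, had 14.2, 13.7 and 11.7 CPM in NX JV101, against 30.5, 17.3 and 38.7 CPM in NX saline. In sham JV101 it had 17.0, 20.3 and 14.6 CPM, against 22.9, 26.4 and 27.8 CPM in sham saline, so the libraries did not overlap within either surgery. Its log2 fold change was −0.85 ± 0.18 (SE). Muc16, the mucin that carries the CA125 antigen and binds mesothelin, had 4.02, 2.50 and 2.67 CPM in NX JV101, against 9.92, 6.50 and 12.1 CPM in NX saline. In sham JV101 it had 3.61, 6.87 and 4.16 CPM, against 5.71, 8.26 and 9.13 CPM in sham saline, and sham JV101 replicate 2 overlapped the saline libraries. Its log2 fold change was −1.15 ± 0.26 (SE).

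The other mesothelial markers differed in how evenly they were lower. The keratin Krt18 (log2 fold change −1.02 ± 0.30, SE), the tetraspanin Upk1b (−0.95 ± 0.32) and the membrane glycoprotein Gpm6a (−0.59 ± 0.18) were lower after both surgeries. For the keratin Krt19 the log2 fold change was −1.61 after NX and −0.26 after sham, and for the keratin Krt8 −1.48 and −0.00. None of the 12 markers passed the test of a difference between surgeries, with a smallest adjusted p of 1.00 for the interaction (edgeR, Benjamini-Hochberg). The epithelial transcription factor Bnc1 was at −0.56 ± 0.29. Wt1, a transcription factor of epicardium that endothelial cells also express, and C3, a complement component that fibroblasts also express, were at −0.16 ± 0.37 and −0.00 ± 0.29.

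Averaged over the 12 markers on the log2 CPM scale and set against each gene's mean, the mesothelial level was −0.73 to −0.04 in the 6 JV101 libraries, with a median of −0.38, and 0.06 to 1.02 in the 6 saline libraries, with a median of 0.28. Both saline groups were above both JV101 groups in every library, and the gap was wider between NX JV101 and NX saline than between the sham groups. Some other cell type lists had negative medians too, with −1.94 for lymphocyte, −1.93 for airway and lung, −1.14 for erythroid and platelet and −0.94 for adipocyte markers. Medians were positive for 11 smooth muscle and pericyte markers (0.42, and 0.25 without sham JV101 replicate 1), 16 fibroblast markers (0.33), 16 endothelial markers (0.21) and 16 macrophage markers (0.12). The sign of the fibroblast, endothelial and macrophage medians rested on single libraries, since without sham JV101 replicate 1 they were −0.018, −0.048 and −0.16. The macrophage median was also negative without NX JV101 replicate 2 (−0.079) or sham saline replicate 1 (−0.0019), and with limma voom the fibroblast, endothelial and macrophage medians were −0.031, −0.0014 and −0.14. Without the 3 libraries with the highest mitochondrial share (sham JV101 replicate 2, NX saline replicate 3 and sham saline replicate 2, an alternative chosen after seeing the data) the mesothelial median was −0.80, with Lrrn4 at −1.31 and Msln at −1.07.

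**Figure D2:**
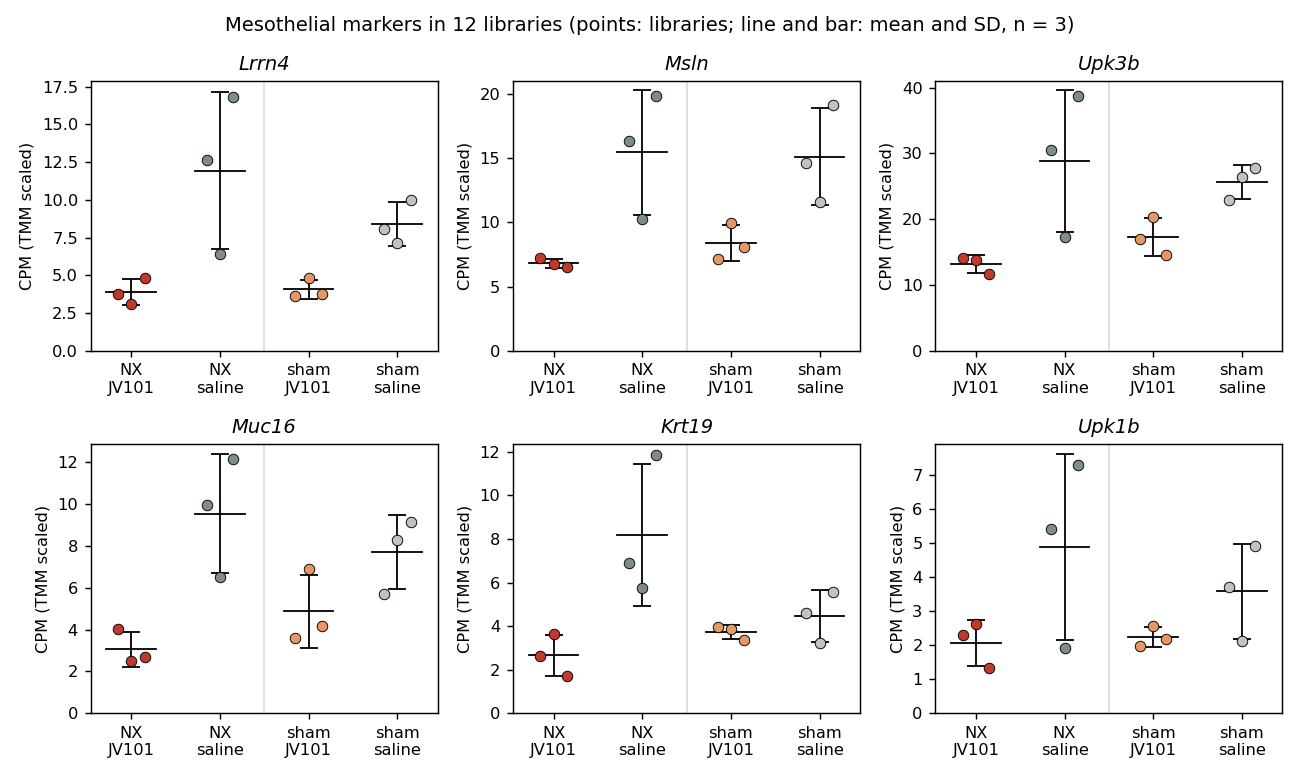
CPM of 6 mesothelial markers, 1 panel a gene, with 1 point a library and the mean and SD of 3 libraries for NX JV101, NX saline, sham JV101 and sham saline. Lrrn4, Msln and Upk3b do not overlap between JV101 and saline within either surgery, Muc16 and Krt19 overlap after sham surgery, and Upk1b overlaps after both.

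Of the 12 mesothelial markers, 8 had a promoter window in the RefSeq table of GRCm38.p6 (250 bases before to 50 bases after a gene's start), and those of Lrrn4 and Upk3b are printed because these genes were lower together and both windows hold the M-CAT motif, GGAATG, which TEAD factors bind. The motif, searched on both strands, was in 3 of the 8 genes' windows and in 14.7% of all 32851 promoters in the table. The 3 genes were Lrrn4, Upk3b and Gpm6a, and the window of Muc16 held no match. The motif was also in 2 of 5 small heat shock protein genes and in 1 of 18 HSP70 and HSP90 chaperone genes, so it was not particular to mesothelial markers. A gene counted if any of its windows matched, while 14.7% is a share of single windows, so the units differ. A match describes the letters of the window and not a bound site. The windows are chr2:132880813-132881112 on the minus strand and chr5:136038246-136038545 on the plus strand, each printed 5′ to 3′ along its gene with the motif (or its complement read backwards) in capitals.
Lrrn4: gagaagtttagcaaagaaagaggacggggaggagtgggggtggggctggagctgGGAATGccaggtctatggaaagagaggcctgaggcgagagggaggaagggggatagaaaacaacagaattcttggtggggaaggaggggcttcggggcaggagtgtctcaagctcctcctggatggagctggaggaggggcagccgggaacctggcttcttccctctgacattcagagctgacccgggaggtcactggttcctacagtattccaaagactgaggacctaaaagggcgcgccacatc
Upk3b: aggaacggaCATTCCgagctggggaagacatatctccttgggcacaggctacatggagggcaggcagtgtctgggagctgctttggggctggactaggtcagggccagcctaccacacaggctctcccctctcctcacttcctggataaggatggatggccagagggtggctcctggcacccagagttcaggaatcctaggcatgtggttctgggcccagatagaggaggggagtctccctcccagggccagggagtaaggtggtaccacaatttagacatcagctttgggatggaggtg

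Other genes that were lower with JV101 with a small edgeR p lay outside the lists, and most were below 20 CPM. Lrp2, the endocytic receptor megalin, had 0.920, 1.34 and 0.823 CPM in NX JV101, against 2.63, 1.93 and 4.06 CPM in NX saline, and 1.50, 2.08 and 1.38 CPM in sham JV101, against 2.71, 2.60 and 3.13 CPM in sham saline. It was apart within both surgeries and 2.17-fold lower (log2 fold change −1.12 ± 0.24, SE). Gpc3, a glypican of the cell surface, was also apart within both surgeries, with 4.10 to 8.77 CPM in the JV101 libraries, against 7.07 to 17.1 CPM in the saline libraries (log2 fold change −0.84 ± 0.22). Pkhd1l1, a large fibrocystin-like membrane protein, was at 9.22 to 16.2 CPM with JV101, against 13.7 to 25.6 CPM with saline (−0.81 ± 0.20).

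C2, a complement protease, was at −0.83 ± 0.20 on the log2 scale, and Cybrd1, a ferric reductase of the plasma membrane, at −0.89 ± 0.24. The tyrosine phosphatase Ptpn13 was apart over all 12 libraries, with 2.32 to 3.39 CPM with JV101, against 3.52 to 7.15 CPM with saline (log2 fold change −0.68 ± 0.20). Arhgap4, a GTPase-activating protein, was at −0.70 ± 0.23 and apart within both surgeries. The predicted genes Gm26944 and Gm32261 were at −1.08 ± 0.29 and −0.64 ± 0.19. Xpnpep2, a membrane-bound aminopeptidase named here for its DESeq2 call, had 0.307 to 0.678 CPM with JV101, against 0.661 to 1.80 CPM with saline, which was 2.63-fold lower at a low level.

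Genes that PPAR factors induce in fasting were lower with JV101, and 4 of the 6 saline libraries were the high ones. Of 17 such genes 16 were measured. Over both surgeries 14 were lower (45.1% of all genes), and 13 were lower after each surgery (22.9%). Of the 16 genes, 5 had an unadjusted edgeR p under 0.05 in the lower direction (1.33% of all genes). Their median log2 fold change was −0.35 over both surgeries, −0.29 after NX and −0.28 after sham. None passed with edgeR after adjustment.

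Pdk4, the kinase that inhibits pyruvate dehydrogenase, had 314, 166 and 292 CPM in NX JV101, against 161, 1102 and 1603 CPM in NX saline. In sham JV101 it had 213, 233 and 164 CPM, against 299, 1025 and 748 CPM in sham saline. The 6 JV101 libraries lay between 164 and 314 CPM, replicate 1 of both saline groups lay at or near that range, and the other 4 saline libraries were higher. Pdk4 averaged 230 ± 62.6 CPM with JV101 and 823 ± 538 CPM with saline (SD, n = 6 each), 3.55-fold lower (log2 fold change −1.83 ± 0.44, SE; adjusted p = 1.00 with edgeR). Without the 3 libraries of highest mitochondrial share its log2 fold change was −1.39.

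Acot1, a cytosolic acyl-CoA thioesterase, showed the same pattern at a lower level. It had 4.90, 3.96 and 5.83 CPM in NX JV101, against 6.69, 10.3 and 12.4 CPM in NX saline, and 4.02, 6.55 and 5.60 CPM in sham JV101, against 6.04, 15.2 and 11.6 CPM in sham saline. The arms overlapped only through sham JV101 replicate 2 and sham saline replicate 1. Its log2 fold change was −1.01 ± 0.23 (SE), with −0.99 after NX and −1.02 after sham. Acot1 has close copies, and reads shared with Acot2 (−0.37 ± 0.18) could have been divided between them.

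Ucp3, a carrier of the inner mitochondrial membrane, was at −1.08 ± 0.40, with 9.66 to 29.2 CPM with JV101, against 17.4 to 89.3 CPM with saline. Angptl4, a secreted inhibitor of lipoprotein lipase, was at −1.54 ± 0.69, and Ppargc1a, the coactivator PGC-1 alpha, at −0.60 ± 0.27. As a mean over the 16 genes on the log2 CPM scale, the level was −0.48 to 0.05 in the JV101 libraries. It was −0.44 and −0.34 in replicate 1 of NX saline and of sham saline, and 0.42 to 0.78 in the other 4 saline libraries. The mitochondrial share of those 4 libraries was 66.5% and 69.0% in a pair of them and 44.8% and 44.2% in the other pair, and its part in the result was not tested.

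The enzymes of fatty acid oxidation were lower by a small amount. All 24 had a negative log2 fold change over both surgeries with TMM scaling (45.1% of all genes did). This also held for all 24 with RLE factors, upper-quartile factors and TMM without mitochondrially encoded genes. Of the 24 enzymes, 19 were negative both after NX and after sham (22.9% of all genes). On log2(FPKM + 1), their median was 0.03, against 0.14 for all genes. The edgeR median was −0.18, with 1 member at an unadjusted p under 0.05. It was −0.11 without NX JV101 replicate 2 or without sham JV101 replicate 1, −0.32 without the 3 libraries of highest mitochondrial share and −0.071 with limma voom. That member was Mlycd, malonyl-CoA decarboxylase, which removes the inhibitor of fatty acid entry into mitochondria, with 45.9 to 79.0 CPM with JV101, against 66.6 to 77.4 CPM with saline (log2 fold change −0.29 ± 0.12, SE). Cpt2, the inner-membrane carnitine palmitoyltransferase, was at −0.24 ± 0.13 and the thiolase Acaa2 at −0.23 ± 0.14. Cpt1b was counted at a mean of only 0.459 CPM with JV101 and 0.767 CPM with saline (log2 fold change −0.84 ± 0.48).

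The level of the list overlapped between arms. It was −0.48 to 0.23 in the JV101 libraries and −0.11 to 0.22 in the saline libraries, and the lowest were NX JV101 replicate 2 and sham JV101 replicate 1. Other fuel genes differed less. The medians were −0.09 for 19 genes of branched-chain amino acid breakdown, −0.03 for 29 nuclear genes of the respiratory chain and −0.02 for 18 genes of glucose uptake and glycolysis. The 13 mitochondrially encoded genes of the respiratory chain had a median of −0.45. All 13 were negative after both surgeries (22.9% of all genes were), and none had an unadjusted p under 0.05 with edgeR. That median was −0.25 without NX saline replicate 3, −0.16 without sham saline replicate 2 and −0.10 without the 3 libraries of highest mitochondrial share.

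Most genes of the HSP70 and HSP90 chaperone list had negative log2 fold changes with JV101, with overlapping libraries and a larger median difference after sham surgery than after NX. The list also holds Hspd1 and Hspe1 of the mitochondrial chaperonin and Hsf1, the gene of the factor HSF1. Of its 22 genes, all measured, 20 were lower over both surgeries (45.1% of all genes) and 15 were lower after each (22.9%). An unadjusted edgeR p under 0.05 in the lower direction was reached by 6 (1.33% of all genes). The median log2 fold change was −0.24 over both surgeries, −0.09 after NX and −0.42 after sham, and no member passed the edgeR test of the interaction (smallest adjusted p 1.00). On log2(FPKM + 1) their median was −0.02, against 0.14 for all genes. As a mean over the 22 genes on the log2 CPM scale, the level was −0.30, 0.18 and −0.04 in NX JV101, against −0.35, −0.19 and −0.06 in NX saline, and −0.39, 0.23 and −0.37 in sham JV101, against −0.11, 0.75 and 0.65 in sham saline. Sham saline replicates 2 and 3 were the high libraries, and after NX the mean level was not lower with JV101.

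Hspb1, the small heat shock protein HSP27, had 115, 145 and 142 CPM in NX JV101, against 148, 189 and 251 CPM in NX saline. In sham JV101 it had 158, 199 and 113 CPM, against 174, 449 and 295 CPM in sham saline. The groups were apart after NX and overlapped after sham through sham JV101 replicate 2. Hspb1 was 1.69-fold lower (log2 fold change −0.76 ± 0.23, SE; adjusted p = 1.00 with edgeR), and at −0.56 without the 3 libraries of highest mitochondrial share. It was the only one of 7 small heat shock proteins with an unadjusted p under 0.05, and the eye and heart crystallin Cryab (−0.15 ± 0.12), Hspb3 (0.24 ± 0.20) and Hspb7 (0.21 ± 0.20) were near 0.

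Hsp90aa1, the inducible cytosolic HSP90, had 58.3, 129 and 90.8 CPM in NX JV101, against 123, 104 and 141 CPM in NX saline, and 112, 169 and 68.4 CPM in sham JV101, against 112, 371 and 251 CPM in sham saline. The highest values were those of sham saline replicates 2 and 3, and the other 10 libraries overlapped. Its log2 fold change was −0.74 ± 0.31 (SE). Hspd1, the mitochondrial chaperonin HSP60, was at −0.32 ± 0.12, Hspa4l, an HSP110-type partner of HSP70, at −0.27 ± 0.11, and Chordc1, a cochaperone of HSP90, at −0.41 ± 0.19. Unc45b, a chaperone that folds muscle myosin, was at −0.42 ± 0.12, with 89.1 to 145 CPM with JV101, against 114 to 220 CPM with saline.

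The stress-induced pair Hspa1a and Hspa1b did not share this direction. Hspa1a had 54.2, 84.1 and 57.7 CPM in NX JV101, against 4.28, 14.9 and 27.9 CPM in NX saline, and 7.96, 30.6 and 7.07 CPM in sham JV101, against 10.2, 98.5 and 112 CPM in sham saline. Its log2 fold change was 2.07 after NX and −2.28 after sham, and the interaction had an adjusted p of 1.00 with edgeR. Hspa1b followed with 2.52 and −2.80, but these genes are near-identical copies whose reads cannot be separated with certainty.

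Chaperones of the endoplasmic reticulum, which the unfolded protein response induces, had a median of −0.22 over 22 genes. Of these, 18 were lower over both surgeries (45.1% of all genes), 13 lower after each surgery (22.9%) and 3 at an unadjusted edgeR p under 0.05 in the lower direction (1.33%). The median was −0.10 without the 3 libraries of highest mitochondrial share and −0.0058 on log2(FPKM + 1), where it was 0.14 for all genes. Hsp90b1, the reticulum form of HSP90, had 159, 214 and 172 CPM in NX JV101, against 230, 204 and 277 CPM in NX saline, and 253, 225 and 196 CPM in sham JV101, against 238, 349 and 254 CPM in sham saline (log2 fold change −0.35 ± 0.13, SE). 1 JV101 library of NX and 1 of sham lay within the saline range. The HSP70-type chaperones Hspa5 and Hyou1 were at −0.34 ± 0.14 and −0.48 ± 0.20, and Hyou1 was at −0.21 without those 3 libraries. The 24 proteasome genes had a median of 0.04. The median over the 32 cytosolic ribosomal proteins was 0.05.

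**Figure D3:**
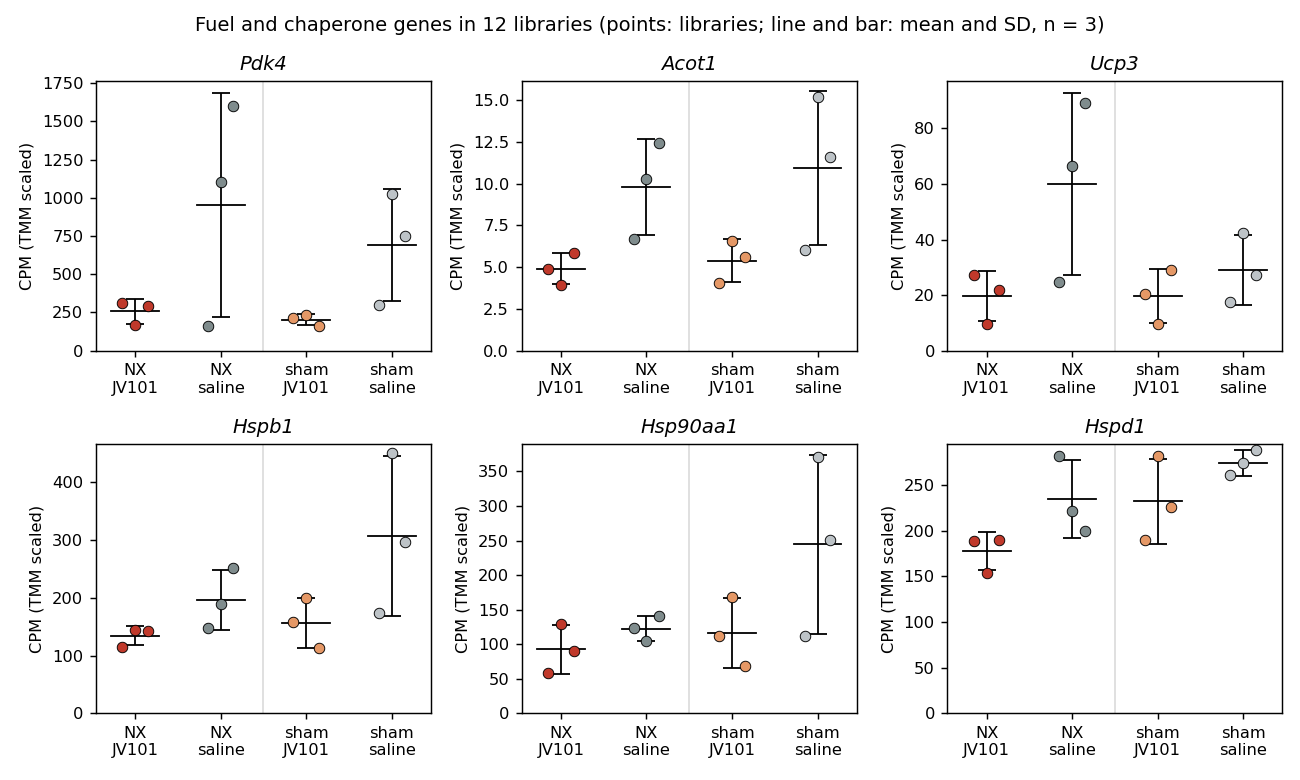
CPM of 3 genes of fuel use (top) and 3 chaperones (bottom), with 1 point a library and the mean and SD of 3 libraries for NX JV101, NX saline, sham JV101 and sham saline. For Pdk4 the 6 JV101 libraries lie between 164 and 314 CPM and the saline libraries spread from 161 to 1603 CPM, and for Hsp90aa1 the high values are 2 libraries of sham saline.

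Of the 22 genes of the HSP70 and HSP90 list, 18 had a promoter window in the RefSeq table. A heat shock element, searched as GAANNTTC on both strands, was in 9 of these (50%). It was in 4 of 5 small heat shock proteins and in 7.86% of all 32851 promoters. A gene counted if any of its windows matched, while 7.86% is a share of single windows, so the units differ. None of the 8 mesothelial genes with a window held the element. The windows of Hspb1 and Chordc1, each with 2 matches in capitals, are shown as those of the lower genes in which the element, the sequence HSF1 binds, is easiest to see. They are chr5:135887669-135887968 and chr9:18292017-18292316 of GRCm38.p6, both on the plus strand and printed 5′ to 3′. The first bases of the matches are at −117 and −97 relative to the start of Hspb1 and at −4 and 7 relative to the start of Chordc1.
Hspb1: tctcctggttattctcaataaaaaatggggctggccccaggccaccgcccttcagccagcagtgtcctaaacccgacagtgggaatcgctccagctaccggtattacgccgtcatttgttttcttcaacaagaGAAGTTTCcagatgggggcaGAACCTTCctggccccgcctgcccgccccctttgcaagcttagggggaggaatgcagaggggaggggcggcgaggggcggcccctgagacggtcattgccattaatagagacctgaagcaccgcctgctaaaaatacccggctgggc
Chordc1: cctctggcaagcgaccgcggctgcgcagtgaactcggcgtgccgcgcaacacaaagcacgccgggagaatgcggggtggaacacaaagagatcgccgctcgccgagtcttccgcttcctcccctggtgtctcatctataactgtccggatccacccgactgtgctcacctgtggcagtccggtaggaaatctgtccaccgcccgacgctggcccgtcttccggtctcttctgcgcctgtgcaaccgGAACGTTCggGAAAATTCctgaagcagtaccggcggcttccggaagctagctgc

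Lymphocyte genes were lower with JV101 at very low counts. Of 13 markers 8 were measured, 7 were lower after both surgeries, and 6 had an unadjusted edgeR p under 0.05 in the lower direction, against 22.9% and 1.33% of all genes. Their median log2 fold change was −1.94 over both surgeries, −2.55 after NX and −0.82 after sham. Among those 6, Pax5, Ms4a1 and Cd79b are genes of B cells. Pax5, the B cell lineage factor, had 5, 5 and 6 counts in NX JV101, against 8, 29 and 37 in NX saline, and 8, 15 and 4 counts in sham JV101, against 23, 24 and 15 in sham saline. Its libraries were apart after NX and overlapped after sham. The log2 fold change of Pax5 was −2.0 ± 0.60 (SE), that of the B cell membrane protein Ms4a1 −1.93 ± 0.67, and that of the T cell receptor subunit Cd3g −1.95 ± 0.67. Cd4 was at 0.37 ± 0.61. The filter for low genes keeps a gene with enough counts in some libraries, which can all be of the same arm. Pax5 had a median of 0.160 CPM with JV101, against 0.711 CPM with saline. The highest Cd3g library had 0.274 CPM with JV101, against 0.404 CPM with saline. A marker kept mainly for its saline counts tends to be lower with JV101. The share of lower markers, their small p-values and the median may partly reflect this filter, which was not tested. With limma on log2(FPKM + 1), a scale that shrinks genes at this level, the median was −0.22.

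Red blood cell genes were lower in the medians but varied widely between libraries, and the median of the 8 erythroid and platelet markers was −0.62 without sham saline replicate 2. Hbb-bs, an adult beta globin, had 39.8, 41.6 and 22.4 CPM in NX JV101, against 81.5, 40.3 and 123 CPM in NX saline, and 72.2, 118 and 7.82 CPM in sham JV101, against 13.5, 350 and 132 CPM in sham saline. The arms overlapped after both surgeries (log2 fold change −1.28 ± 0.66, SE). Alas2, the first enzyme of heme synthesis in red cells, was at −1.31 ± 0.79, and the near-identical globin copies Hba-a2 and Hbb-bt were at −1.31 ± 0.68 and −1.30 ± 0.72.

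No list held more than 2 genes that were higher with JV101 at an unadjusted edgeR p under 0.05. Small differences in the higher direction were still common in some lists. Of 32 cytosolic ribosomal proteins 30 were higher, and of 24 proteasome genes 21 (54.9% of all genes were). With RLE factors these were 26 and 16. Of 16 fibroblast and 16 endothelial markers, 15 each were higher. Bhlhe40, a transcriptional repressor of the circadian clock, had 60.0, 47.4 and 54.8 CPM in NX JV101, against 32.5, 41.7 and 37.3 CPM in NX saline. In sham JV101 it had 51.1, 38.1 and 31.2 CPM, against 32.5, 27.9 and 29.7 CPM in sham saline. The libraries were apart after NX, and after sham 1 JV101 library lay below the highest saline library. Bhlhe40 was 1.39-fold higher (log2 fold change 0.48 ± 0.12, SE; adjusted p = 1.00 with edgeR). Its paralog Bhlhe41 was at 0.57 ± 0.23, and these were the only 2 of 19 clock genes with an unadjusted p under 0.05 (1.10% of all genes were higher at that p). Ciart, another clock repressor, was at 1.04 ± 0.56 and Clock, the activator, at −0.33 ± 0.18, and the list's median was 0.07.

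Dnajc17, a J-domain protein with a role in splicing, had 3.78, 2.90 and 2.57 CPM in NX JV101, against 2.35, 2.47 and 1.62 CPM in NX saline, and 3.12, 2.58 and 2.88 CPM in sham JV101, against 1.69, 1.79 and 2.01 CPM in sham saline. All 6 JV101 libraries were above all 6 saline libraries, which held for 9 genes (0.0624%), of which 7 had a mean of at least 1 CPM. Its log2 fold change was 0.58 ± 0.17 (SE). Syap1, a synapse-associated protein, was the most even of the higher genes named here, with 24.5, 24.6 and 24.9 CPM in NX JV101, against 21.6, 21.4 and 19.4 CPM in NX saline, and 22.98, 22.1 and 22.2 CPM in sham JV101, against 20.5, 18.8 and 19.9 CPM in sham saline. It too was above saline in every library, and its log2 fold change was 0.22 ± 0.07.

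Slc35b2, which carries the sulfate donor PAPS into the Golgi, was apart in all 12 libraries, with 13.4 to 17.6 CPM with JV101, against 11.3 to 13.0 CPM with saline (log2 fold change 0.30 ± 0.10, SE). Nudt16l1, a binding partner of a DNA repair protein, was at 7.99 to 9.07 CPM with JV101, against 6.45 to 7.22 CPM with saline (0.28 ± 0.09). Neurl1a, an E3 ubiquitin ligase, was also apart in all 12 libraries at about 1 CPM (0.61 ± 0.22). Of these, Syap1, Slc35b2 and Nudt16l1 had small differences and little spread.

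Dpm3, a subunit of the dolichol-phosphate mannose synthase, was apart within both surgeries, with 4.40 to 7.33 CPM with JV101, against 3.68 to 4.66 CPM with saline (log2 fold change 0.48 ± 0.15, SE). The uncharacterised gene D10Wsu102e (0.42 ± 0.13), the lysosomal phospholipase Pla2g15 (0.39 ± 0.13), the endonuclease subunit Slx1b (0.63 ± 0.21) and the secreted glycoprotein stanniocalcin, Stc2 (0.40 ± 0.14), were apart within both surgeries as well. Me2, the mitochondrial malic enzyme, was at 0.34 ± 0.10, the spliceosomal cyclophilin Ppih at 0.57 ± 0.19 and the RNA-binding protein Rbm43 at 0.59 ± 0.20. Sele, the endothelial adhesion molecule E-selectin, had the largest difference of these at 2.10 ± 0.66, but with 5.59, 2.87 and 1.15 CPM in NX JV101, against 0.475, 0.862 and 1.52 CPM in NX saline, and 6.40, 0.994 and 0.389 CPM in sham JV101, against 0.844, 0.173 and 0.340 CPM in sham saline, it overlapped after both surgeries.

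**Figure D4:**
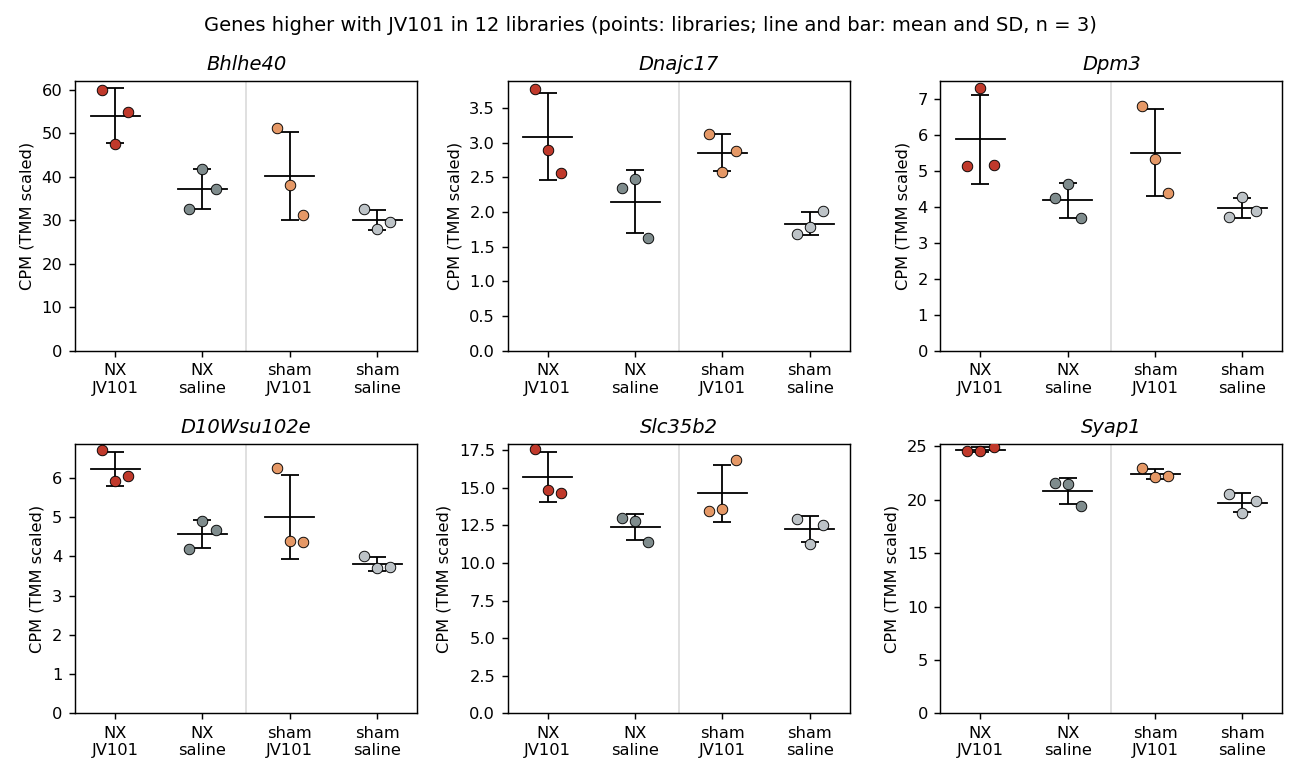
CPM of 6 genes that were higher with JV101, with 1 point a library and the mean and SD of 3 libraries for NX JV101, NX saline, sham JV101 and sham saline. Dnajc17, Slc35b2 and Syap1 have all 6 JV101 libraries above all 6 saline libraries, Dpm3 and D10Wsu102e are apart within each surgery, and Bhlhe40 overlaps after sham surgery.

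Genes of telomere protection differed little. The 7 subunits of shelterin, the complex that caps telomeres, had a median log2 fold change of 0.08 and none had an unadjusted edgeR p under 0.05. Tinf2, the scaffold subunit, had 7.32, 8.13 and 7.55 CPM in NX JV101, against 6.59, 5.61 and 7.42 CPM in NX saline, and 7.66, 6.42 and 6.20 CPM in sham JV101, against 6.29, 6.64 and 5.76 CPM in sham saline (log2 fold change 0.18 ± 0.11, SE). The DNA-binding subunits Terf1 and Terf2 were at 0.23 ± 0.31 and −0.03 ± 0.14, Terf2ip at 0.09 ± 0.09, Acd at 0.08 ± 0.14, and the single-strand binders Pot1a and Pot1b at −0.10 ± 0.15 and −0.13 ± 0.35. On log2(FPKM + 1), where the median of all genes was 0.14, Terf2, Pot1a and Pot1b were at 0.14, 0.082 and 0.060, so they were not above the shift of that scale. Acd was negative with limma voom.

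Of 13 genes of telomerase and of the CST complex 12 were measured, with a median of 0.10 and none at an unadjusted edgeR p under 0.05. Stn1, a CST subunit, was at 0.30 ± 0.15, and the telomerase partners Wrap53, Dkc1 and Nop10 were at 0.22 ± 0.17, 0.08 ± 0.10 and 0.12 ± 0.15. Tert, the catalytic subunit of telomerase, had 0 to 6 counts in any library, with 0, 1 and 0 in NX JV101, against 1, 4 and 0 in NX saline, and 0, 6 and 0 in sham JV101, against 4, 0 and 1 in sham saline, and was not tested.

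Genes of stress and growth in heart muscle were mixed. Xirp1, an actin-binding protein of intercalated discs, was at −0.54 ± 0.19 and was the only one of 16 measured genes of hypertrophy and the fetal program with an unadjusted edgeR p under 0.05. Ankrd1, a sarcomere stress protein, was at 0.40 ± 0.24, and Rcan1, an inhibitor of calcineurin, at −0.40 ± 0.25. Acta1, skeletal alpha actin, was at 0.66 ± 0.34, with log2 fold changes of 0.01 after NX and 1.30 after sham. Sesn2, sestrin 2, at 0.41 ± 0.17, was the only one of 25 measured p53 and senescence genes with an unadjusted p under 0.05, while the apoptosis gene Bax was at 0.27 ± 0.16, the cell cycle inhibitor Cdkn2c at −0.22 ± 0.15 and the p53 target Trp53inp1 at −0.29 ± 0.21.

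Smooth muscle and pericyte markers were higher in 10 of 11 genes (54.9% of all genes were). All 10 were higher after both surgeries (30.3% of all genes), but none had an unadjusted edgeR p under 0.05. The level of these markers overlapped between arms, from −1.38 to 0.70 in JV101 libraries and from −0.59 to 0.40 in saline libraries. Their median was 0.42, with the pericyte channel subunit Kcnj8 at 0.69 ± 0.41, the proteoglycan Cspg4 at 0.43 ± 0.27, the contractile protein Tagln at 0.58 ± 0.38 and the smooth muscle myosin Myh11 at 0.42 ± 0.30. Over all 41 lists, 9 had a median below −0.2 and 5 a median above 0.2.

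**Figure D5:**
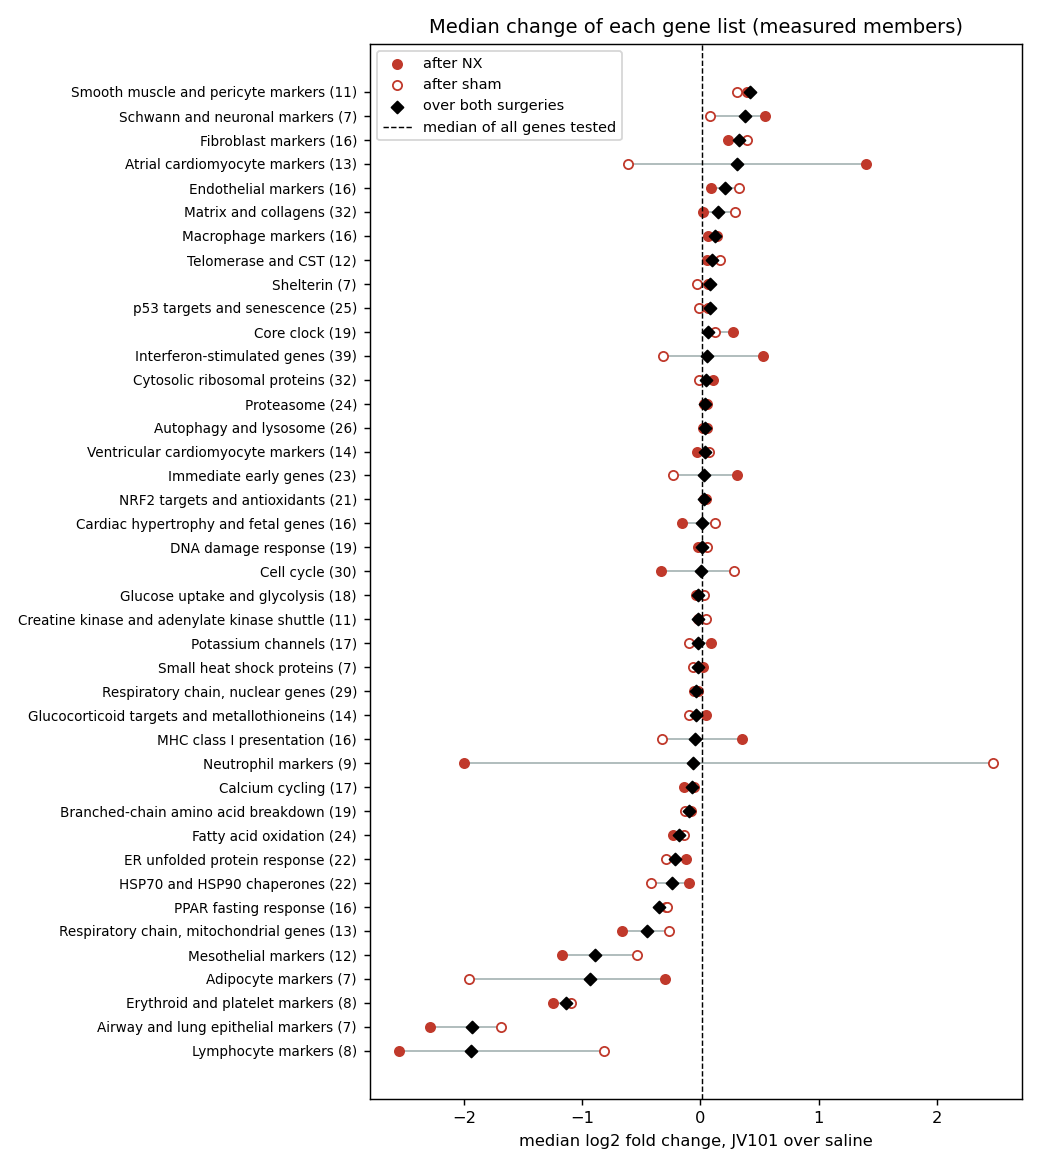
Median log2 fold change of JV101 over saline for the measured members of each of 41 gene lists (number in brackets), after NX (filled circles), after sham (open circles) and over both surgeries (diamonds), with the median of all genes as a dashed line. Mesothelial, lymphocyte, erythroid and PPAR lists lie left of the line after both surgeries, while atrial and neutrophil markers lie on opposite sides of it after NX and sham.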

How the data were processed

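RNA of isolated cardiomyocytes was purified with an RNeasy kit, and 1.3 µg went into each VAHTS Universal V6 library of polyA RNA, per the labels' protocols. The submitters' processing notes name fastp, HISAT2, HTSeq and GRCm39; versions, annotation and strand use, not given in the sources used here, stay unnamed, so overlapping and antisense genes cannot be told apart. The authors deposited raw counts and FPKM for 22794 genes in 12 libraries, and each column was matched to its sample by the column name in the label. Main results rest on the deposited counts; the deposited FPKM served as an alternative. Symbols were looked up in reference tables of the older build GRCm38.p6 (97.0% found), used for names and promoter windows only.

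Low genes were removed by filterByExpr of edgeR (10 as minimum count, 15 as minimum total). After TMM scaling, a quasi-likelihood model was fitted in edgeR with JV101 and surgery as additive terms. The NX contrast, the sham contrast and the interaction came from a fit of the 4 groups. Each 2-sided F test was adjusted by Benjamini-Hochberg over all 14412 genes, with a threshold of 0.05. A standard error is the size of the log2 fold change over the root of its F value. CPM include TMM factors. For the level of a list in a library, log2 CPM (prior count 2) was centred on each gene's mean over 12 libraries and averaged over the list's measured genes. Libraries of a group were compared before averaging and differed by far more than counting noise (chi-square per degree of freedom of at least 57.8). The model was tested on simulated data. Software was edgeR 4.0.16, DESeq2 1.42.0 and limma 3.58.1 in R 4.3.3.

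The comparison and the 41 gene lists (743 entries, 6 not in the table) were chosen with earlier results of these data known. Named genes were the 12 of smallest p in each direction at 1 CPM or more, the 8 with the largest difference in each direction among genes apart within both surgeries, up to 4 members of each described list, all shelterin genes and 3 genes in each direction of the interaction. Other genes, such as Xpnpep2, Unc45b, Ppargc1a and the remaining mesothelial markers, were chosen after their values were seen. The alternatives tried were DESeq2, factors by RLE or upper quartile, a filter at 5 CPM in 3 libraries or none, other designs (one with the replicate number as a block), limma on log2(FPKM + 1) and log2(FPKM + 0.1), limma voom with sample weights, mitochondrially encoded genes left out of the counts, other thresholds and leaving out each library. A fit without 3 libraries of high mitochondrial share and DESeq2 without each library were added after the data were seen.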

Additional observations from a re-analysis of the deposited data

Results flagged for a closer look

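Of the 14412 genes, 15 (0.104%) had every JV101 library on one side of every saline library after NX and on the other side after sham surgery, and 11 of them had a mean of at least 1 CPM. None passed edgeR's test of the interaction after Benjamini-Hochberg adjustment (adjusted p = 1.00 for each), and the values below are log2 fold changes after NX minus those after sham.

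The 7 genes that were higher with JV101 after NX and lower after sham were these. Spats2l, a protein of stress granules, had a difference of 1.11, with 7.05, 5.58 and 6.38 CPM in NX JV101, against 3.93, 3.16 and 5.36 CPM in NX saline, and 4.35, 4.34 and 4.28 CPM in sham JV101, against 5.88, 5.89 and 6.47 CPM in sham saline. Exoc3l4, a relative of an exocyst subunit, had a difference of 1.40, Tg, thyroglobulin, one of 1.21 and Cnnm4, a magnesium transporter, one of 1.18. The differences were 0.72 for the lysine methyltransferase Smyd3, 0.43 for the histone variant gene H2az2 and 0.38 for the mitochondrial aldehyde dehydrogenase Aldh2.

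The 4 genes that were lower with JV101 after NX and higher after sham were these. Eefsec, the elongation factor for selenocysteine, had a difference of −0.90 and Top3a, a topoisomerase, one of −0.87. The uncharacterised 1700094D03Rik had a difference of −0.79, and Ttc14, a tetratricopeptide repeat protein, one of −0.50.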

How the results depend on the processing

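Depth limits genes of under 1 CPM, such as the lymphocyte markers, whose counts per library were mostly below 50. Of 2112 alternative values of 82 named genes, 23 reversed in sign and 74 genes had none, and 29 of 41 lists had no median that moved by more than the spread between libraries. With edgeR, 0 genes passed in each alternative fit over both surgeries. DESeq2 called 7 genes over both surgeries and 8 after NX. In DESeq2 fits without 1 library, an alternative chosen after seeing the data, the count was 2 (without NX JV101 replicate 1 or 2, sham JV101 replicate 1, NX saline replicate 3, or sham saline replicate 2 or 3), 4 (without NX JV101 replicate 3 or NX saline replicate 1), 13 (without NX saline replicate 2 or sham saline replicate 1), 20 (without sham JV101 replicate 3) or 23 (without sham JV101 replicate 2). The number of genes with an unadjusted p under 0.05 (350 of 14412 tested) was 635 of 22794 with no filter and 177 of 9626 with 5 CPM in 3 libraries. It was 662 with limma voom, and 239 to 828 without 1 library. The lowest was without NX saline replicate 3 and the highest without sham JV101 replicate 3. The filters changed the number of genes tested as well, and the cause of these differences was not tested. The number apart in every library (43) was 21 with 5 CPM in 3 libraries and 54 to 161 without 1 library, where fewer libraries have to be apart. With limma on FPKM, which moved the median of all genes to 0.14 (FPKM + 1) or 0.21 (FPKM + 0.1), the mesothelial median was −0.33 (FPKM + 1, with and without a filter) and the lymphocyte median −0.22 (FPKM + 1, with and without a filter) and −0.94 (FPKM + 0.1). These genes reversed on log2(FPKM + 1), with or without a filter, and on log2(FPKM + 0.1): Cryab (0.075 and 0.075), Pot1a (0.082 and 0.12), Pot1b (0.060 and 0.12) and Terf2 (0.14 and 0.20); Cdkn2c (0.0021) did so on log2(FPKM + 0.1). These are 13 of the 23 reversed values, and the 9 of them from the filtered tables were below the median of all genes on that scale or within 0.01 of it. Acd was at −0.043 with limma voom. Without the 3 libraries of highest mitochondrial share, Hspb7 was at −0.045, Nop10 at −0.043, Pot1b at 0.37 and Terf2 at 0.16. Without 1 library, Pot1b ranged from −0.28 (without NX saline replicate 1) to 0.14 (without sham saline replicate 2) and Terf2 from −0.11 (without NX saline replicate 1) to 0.055 (without NX saline replicate 3). The cause was not tested. Under the filter of 5 CPM in 3 libraries no lymphocyte marker was left. With the replicate number as a block, 0 genes passed and 295 had an unadjusted p under 0.05. Same-numbered JV101 and saline libraries of a surgery had correlations of their deviations from −0.161 to 0.232. For differently numbered ones the range was −0.299 to 0.243. So few libraries cannot decide whether the numbers pair them.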

Other observations

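Atrial cardiomyocyte markers had a median log2 fold change of 1.40 with JV101 after NX and of −0.62 after sham, and none of the 13 had an unadjusted edgeR p under 0.05 over both surgeries. Their level was 0.77, 0.83 and 0.79 in the NX JV101 libraries, against −0.34, −0.24 and −0.25 in NX saline. After sham it was −0.41, −1.78 and 0.64 with JV101, against 0.75, −1.81 and 1.04 with saline. The libraries were apart after NX and overlapped after sham. Neutrophil markers had medians of −2.0 after NX and 2.47 after sham. S100a8, a calcium-binding protein of neutrophils, had 0.715, 1.34 and 0.0249 CPM in NX JV101, against 6.78, 7.53 and 2.22 CPM in NX saline, and 9.85, 3.07 and 0.809 CPM in sham JV101, against 0.768, 0.404 and 1.24 CPM in sham saline. Interferon-stimulated genes had medians of 0.53 after NX and −0.31 after sham, and genes of MHC class I presentation 0.35 and −0.33. No member of these lists passed edgeR's test of the interaction (smallest adjusted p 1.00).

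Among other genes with a small interaction p, the monocarboxylate transporter Slc16a13 had 1.77, 2.45 and 1.47 CPM in NX JV101, against 3.20, 3.08 and 3.47 CPM in NX saline, and 3.67, 2.58 and 2.01 CPM in sham JV101, against 1.56, 2.08 and 1.49 CPM in sham saline. The predicted gene Gm30735 had a log2 fold change of −1.24 after NX and 0.75 after sham. Afp, alpha-fetoprotein, had 19.2, 2.85 and 0 CPM in NX JV101, against 0.0634, 0.0287 and 0 CPM in NX saline, and 0 CPM in all 3 sham JV101 libraries, against 1.41, 9.87 and 0 CPM in sham saline, so single libraries held nearly all of its counts.

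Airway and lung epithelial markers had a median of −1.93 over both surgeries, and all 7 measured were lower after each (22.9% of all genes were). Their level was 2.84, −1.69 and −3.48 in NX JV101, against −3.29, 4.75 and 3.34 in NX saline, and −2.63, −2.04 and 2.50 in sham JV101, against −1.23, −3.35 and 4.28 in sham saline. Their median differed by over 1.5 times when sham saline replicate 3 (−0.56), NX JV101 replicate 1 (−3.16) or replicate 3 of sham JV101 (−3.15) was left out. Both arms held high and low libraries, and none of the 7 had an unadjusted edgeR p under 0.05. Adipocyte markers had a median of −0.94, with 7 of 7 measured lower over both surgeries (45.1% of all genes were). Of these markers, 0 had an unadjusted p under 0.05 with edgeR. Their level overlapped widely, from −1.78 to 1.94 in JV101 libraries and from −1.74 to 2.48 in saline libraries. The adipocyte median was −1.92 without NX JV101 replicate 3, −0.31 without NX saline replicate 2, −0.18 without sham saline replicate 3 and −0.054 on log2(FPKM + 1). Outside the named genes, Zkscan3, a transcriptional repressor of autophagy genes, was at −0.38 ± 0.11 (log2 fold change, SE) and was the only one of 26 autophagy and lysosome genes with an unadjusted edgeR p under 0.05, and it was named after its value was seen.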
